A study of Mus musculus with 12 samples.

Results

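The 7 libraries described here were made from chronic proximal thoracic aortic aneurysms (cPTAA) of mice, and they are 7 of the 12 samples of the series. They were chosen by their labels, as the columns named cPTAA 2, 3, 4, 6, 7, 9 and 12. The mice were male, of the strain written C56BL/6J in the labels, and all 7 had received elastase on the outside of the aorta together with BAPN (β-aminopropionitrile). The question asked of these libraries was which genes were most abundant in the aneurysm tissue and which immune, matrix, muscle and fat genes varied together from library to library. No other group of the series entered any value. The labels give no animal, age or time after surgery for a library, so every p-value below measures only the spread between these samples.

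Elastase breaks down elastin, the protein that gives the aortic wall its recoil, and BAPN blocks the lysyl oxidases that crosslink elastin and collagen. The wall of the thoracic aorta is built from contractile smooth muscle cells between elastic sheets, with fibroblasts and collagen on its outside. The fat around the thoracic aorta of the mouse is largely brown fat, which burns lipid for heat through uncoupling protein 1. Macrophages, lymphocytes and other immune cells enter such a wall when it is injured. A library from ground tissue holds RNA of all of these together, and fewer cells of a type cannot be told apart from less RNA per cell.

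Deposited values are normalised reads per gene, here called values, and 1 read was worth between 0.863 and 0.986 of a value in each library. The libraries held 15238188 to 17493428 reads, and 20769 to 23637 genes had a read. Reads of the mitochondrial genome made up 3.23% to 15.2% of a library, with a median of 4.82%, and cPTAA 9 had the highest share. Haemoglobin genes held 0.00952% to 0.0976% of the reads. Any 2 libraries differed by more than sampling noise, so none was a repeat deposit of another, and this does not show that they came from separate animals.

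Defining genes of the aortic wall were present in all 7 libraries: Myh11 of smooth muscle at 14096 or more, Pdgfra of fibroblasts at 1485 or more and Pecam1 of endothelium at 2362 or more. Several libraries also had high values of genes that mark other tissues. The striated muscle genes of the heart were high in cPTAA 9 and also in cPTAA 6 and cPTAA 7. Myh6, the cardiac myosin heavy chain, had values of 43557 in cPTAA 9, 10200 in cPTAA 7 and 5784 in cPTAA 6, and 13.7 to 323 in the other 4. Myh7, the second cardiac myosin, had values of 471, 112 and 94.7 in the same 3 libraries, in that order, and was at 0 in cPTAA 2, 3 and 4. Over the 10 of 11 cardiomyocyte markers that could be tested, the mean log2(value + 1) ran from 4.18 in cPTAA 2 to 10.1 in cPTAA 9.

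Genes of immature thymus T cells were high in cPTAA 3. Rag1, an enzyme of antigen receptor rearrangement, had a value of 750 there, 21.6 to 75.7 in cPTAA 6, 7, 9 and 12, and 0 in cPTAA 2 and 4. Dntt, which adds bases at the rearranged joints, was at 238 in cPTAA 3 and at 24.1 or less in every other library. The library cPTAA 12 stood apart in another way: it had the lowest Ucp1 and the highest fibrillar collagen, B cell, cartilage and nerve genes. The mean log2(value + 1) of the Schwann cell and nerve markers was 8.315 there and 6.726 to 6.935 elsewhere. Krt5, a keratin of stratified and airway epithelium, was at 1980 in cPTAA 12, 1122 in cPTAA 3 and 610 in cPTAA 2, and at 13.7 to 76.9 in the other 4. The 7 tested airway, oesophagus and thyroid markers together were highest in cPTAA 2, with a mean log2(value + 1) of 5.776 against 5.123 in cPTAA 12. Their median r, the median of Pearson's r over all pairs of genes, was only 0.253. The part of these tissues in the results below was not tested. For some lists the median r is also given without libraries that moved it. Lists shown without such a value may move as well.

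**Figure D1:**
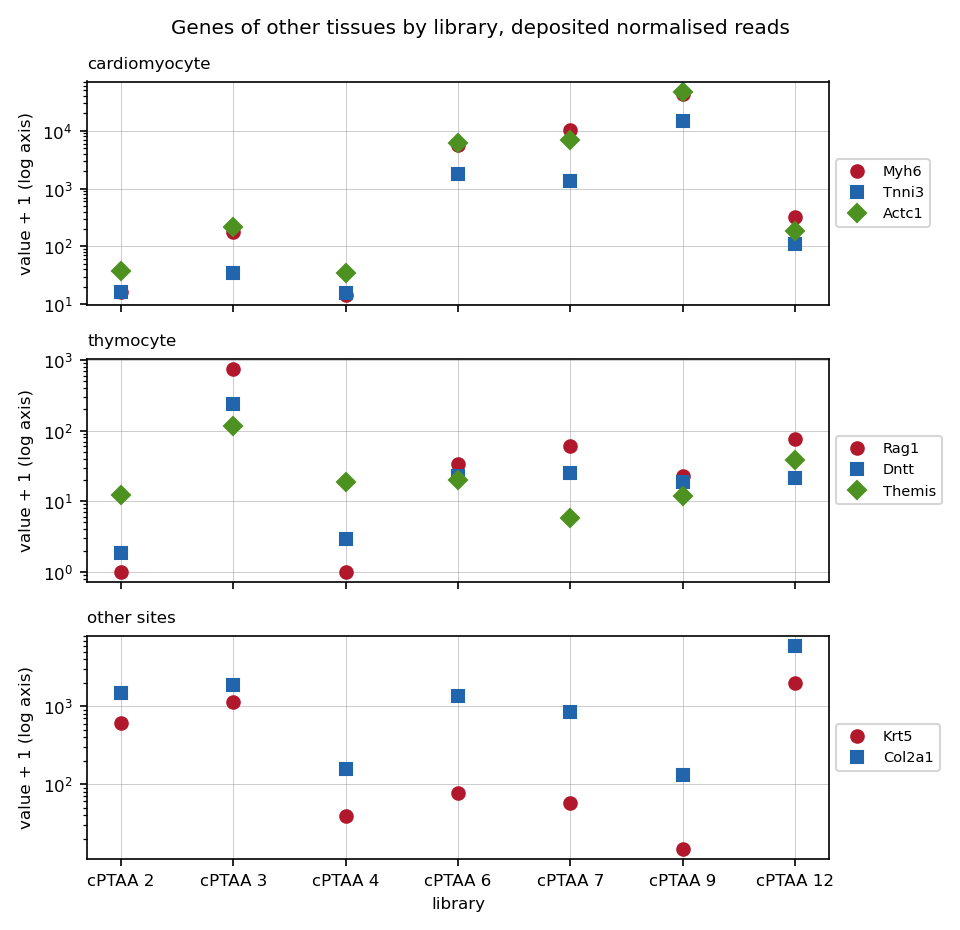
Values of genes of heart muscle (Myh6, Tnni3, Actc1), of immature thymus T cells (Rag1, Dntt, Themis) and of epithelium and cartilage (Krt5, Col2a1) in the 7 cPTAA libraries, as deposited normalised reads plus 1 on a log axis. Myh6 reached 43557 in cPTAA 9, Rag1 reached 750 in cPTAA 3, and Col2a1 reached 5971 in cPTAA 12.

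Matrix and smooth muscle genes led the abundance order of the aneurysm tissue. Levels were compared between genes only after division by transcript length, in ppm (parts per 1000000 of a library's per-length sum over all genes with a length). Ranks were taken over 17496 nuclear protein-coding genes. Mitochondrial genes are part of that sum, so where they were high, as in cPTAA 9, the ppm of nuclear genes were lowered. Mgp, matrix Gla protein, an inhibitor of vascular calcification, ranked 1 in every library, at 18161 ± 5467 ppm (SD, n = 7). Acta2, smooth muscle α-actin, had rank 2 by its mean of 10659 ± 4461, and its own rank ran from 2 to 9, with the lowest level in cPTAA 12. Both extremes of Mgp, 9115 in cPTAA 9 and 27251 in cPTAA 6, lay above every Eef1a1 level, which topped out at 8931.

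The following ranks mixed general cell genes with products of vascular, fat and immune cells. After Eef1a1, a translation factor, came Igfbp7, a secreted growth factor-binding protein, the ribosomal gene Rplp1, B2m, the light chain of MHC class I, and Tmsb4x, an actin-binding peptide. Rank 8 was Cfd, adipsin, which fat cells secrete, at 5454 ± 1470 ppm. Rank 9 was Cst3, cystatin C, an inhibitor of cathepsins, at 5396 ± 1083. The liver and fat product Hp, haptoglobin, had rank 12, the lipid carrier Apoe rank 14, the macrophage lysozyme Lyz2 rank 16 and Scd1, which desaturates newly made fatty acids, rank 18.

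Some of the most abundant genes kept their place in all libraries and others did not. Eef1a1 stayed between ranks 2 and 5, Cst3 between 6 and 14, and Lyz2 between 12 and 23. Igfbp2, an insulin-like growth factor-binding protein, ranked 5 in its best library and 231 in cPTAA 9, where its level was 486 ppm against a highest of 8548. Sparc, a collagen-binding protein, moved from rank 6 to 58, and Ccn2, connective tissue growth factor, from 12 to 127, again with cPTAA 9 lowest. The lowest place of Hp was rank 46, in cPTAA 7, and that of Myl9, the regulatory light chain of smooth muscle myosin, was rank 45, in cPTAA 12.

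The 50 most abundant genes of a library held 22.3% ± 1.71 (SD, n = 7) of the per-length level of its nuclear protein-coding genes. The 10 most abundant held 10.1% ± 1.41 of it. Of these top genes, 24 were among the first 50 of every library, and 92 were among the first 50 of at least 1. Elastin, Eln, had rank 30 by its mean and Col3a1 rank 61. On the mitochondrial genome, mt-Co1 was highest, at a mean of 40514 ppm, followed by mt-Cytb, mt-Nd1, mt-Nd2 and mt-Nd4. All 5 of these were highest in cPTAA 9, where mt-Co1 reached 76595 from a lowest of 28882.

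**Figure D2:**
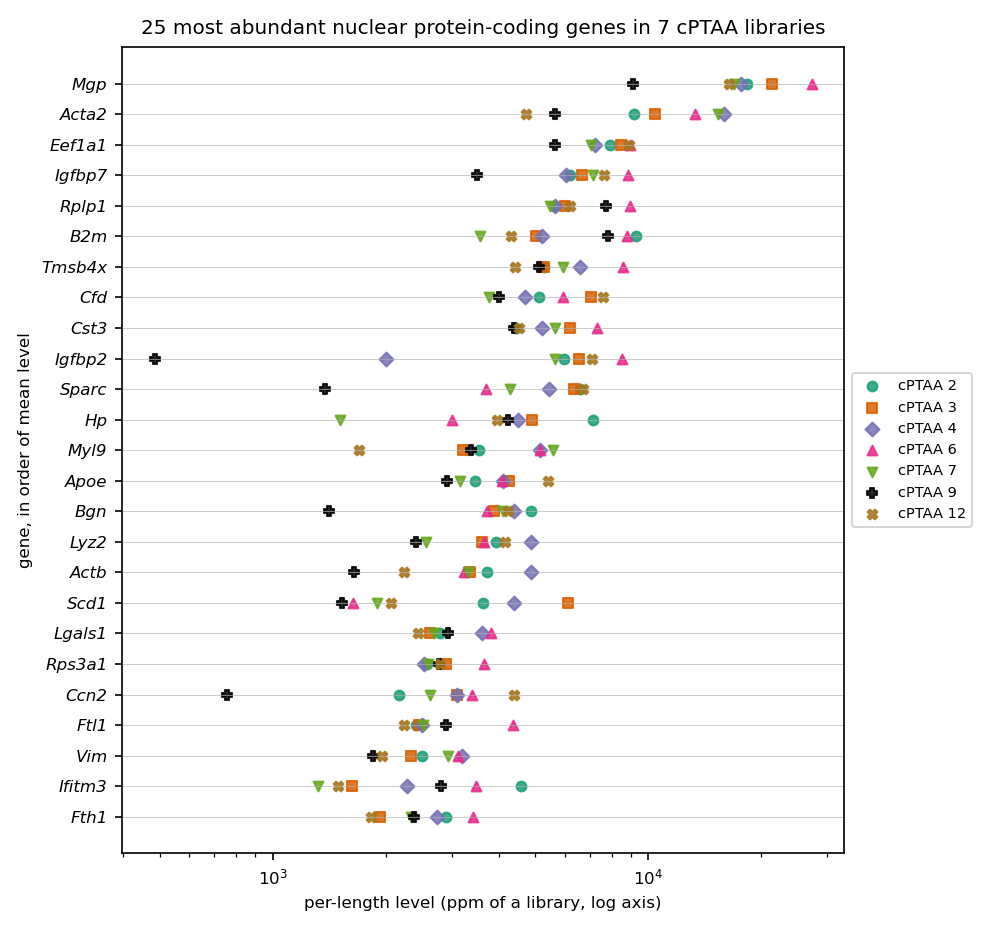
Per-length level of the 25 nuclear protein-coding genes with the highest mean over 7 cPTAA libraries, in ppm of a library on a log axis, with 1 marker per library. Mgp is first in every library, and Igfbp2, Sparc and Ccn2 have a point far to the left, which is cPTAA 9.

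Heart muscle genes varied most. Among protein-coding genes with a mean value of 50 or more, all 15 with the largest SD of log2(value + 1) are genes of striated muscle, led by Myl2, Ckmt2, Acta1, Myh6 and Mb. Their SD lay between 3.74 and 5.56, against a median of 0.38 over the 12603 genes of that abundance. Myl2, the ventricular myosin light chain, had values of 22385 in cPTAA 9, 2801 in cPTAA 6 and 2467 in cPTAA 7, and of 1.73 to 13.9 in the other 4. Mb, myoglobin, had its highest value, 27824, in cPTAA 9 and 15.5 to 46.2 in cPTAA 2, 3, 4 and 12. Red blood cell genes followed a like order: Hbb-bs, a β-globin, ran from 609 in cPTAA 2 to 7991 in cPTAA 9.

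The first principal component of the 1000 most variable genes held 51.9% of their variance and the second 16.9%. On the first, cPTAA 9 scored 73.9, cPTAA 6 35.8 and cPTAA 7 17.7, and the other 4 scored from -46.0 to -21.8, with cPTAA 12 lowest. Of the 8 cardiomyocyte genes among the 1000, 7 pointed to the cPTAA 9 end, as did 376 of all 1000. On the second component cPTAA 12 scored 37.8, with cPTAA 4 at -33.8 and cPTAA 2 at -28.7 on the other end. All 6 B cell genes and all 10 plasma cell and immunoglobulin genes among the 1000 pointed to the cPTAA 12 end, as did 709 of all 1000.

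One gene stood for each of 5 programmes: Ucp1 for brown fat, Myh11, smooth muscle myosin, for contractile muscle, Col1a1, the α1 chain of type I collagen, for fibrillar matrix, Adgre1, the F4/80 antigen, for macrophages and Cd79a, a chain of the B cell receptor complex, for B cells. Ucp1 had its lowest value, 105, in cPTAA 12, a median of 8070 and its highest, 28872, in cPTAA 9. Myh11 ran from 14096 in cPTAA 12 to 60173 in cPTAA 7, with a median of 32242. Col1a1 ran from 8518 in cPTAA 7 to 48402 in cPTAA 12, with a median of 11133. For Ucp1 and Col1a1 cPTAA 12 alone lay far from the rest, and the other 6 values of Col1a1 lay between 8518 and 15194.

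Adgre1 varied least, from 1357 in cPTAA 7 to 3221 in cPTAA 2, with a median of 2681. Cd79a ran from 11.2 in cPTAA 2 to 794 in cPTAA 12, with a median of 157. A second gene of each programme gave a check of the first: Cidea, a lipid droplet protein of brown fat, Acta2, Col3a1, the macrophage glycoprotein Cd68 and Cd79b. Pearson's r of log2(value + 1) over the 7 libraries was 0.891 for Ucp1 with Cidea (Spearman's ρ = 0.929), 0.831 for Col1a1 with Col3a1 (ρ = 0.714) and 0.982 for Cd79a with Cd79b (ρ = 0.679). Their exact two-sided permutation p-values for r were 0.00754, 0.0175 and 0.00397, and 0.0189, 0.0291 and 0.0189 after Benjamini-Hochberg adjustment over 5 such pairs. For ρ the exact permutation p-values were 0.00675, 0.0881 and 0.110, adjusted 0.0337, 0.183 and 0.183.

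Within muscle and macrophages the 2 genes were less alike. Myh11 with Acta2 had r = 0.668 and ρ = 0.5 (exact permutation p = 0.0917 and 0.267, adjusted 0.115 and 0.267). Adgre1 with Cd68 had r = 0.599 and ρ = 0.536 (exact permutation p = 0.163 and 0.236, adjusted 0.163 and 0.267). Without the 2 libraries farthest from the median of the first gene, r was 0.797 for Ucp1 with Cidea, 0.529 for Col1a1 with Col3a1 and 0.910 for Cd79a with Cd79b. It was 0.106 for Myh11 with Acta2 and 0.0776 for Adgre1 with Cd68, so those 2 relations rested on the libraries left out.

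**Figure D3:**
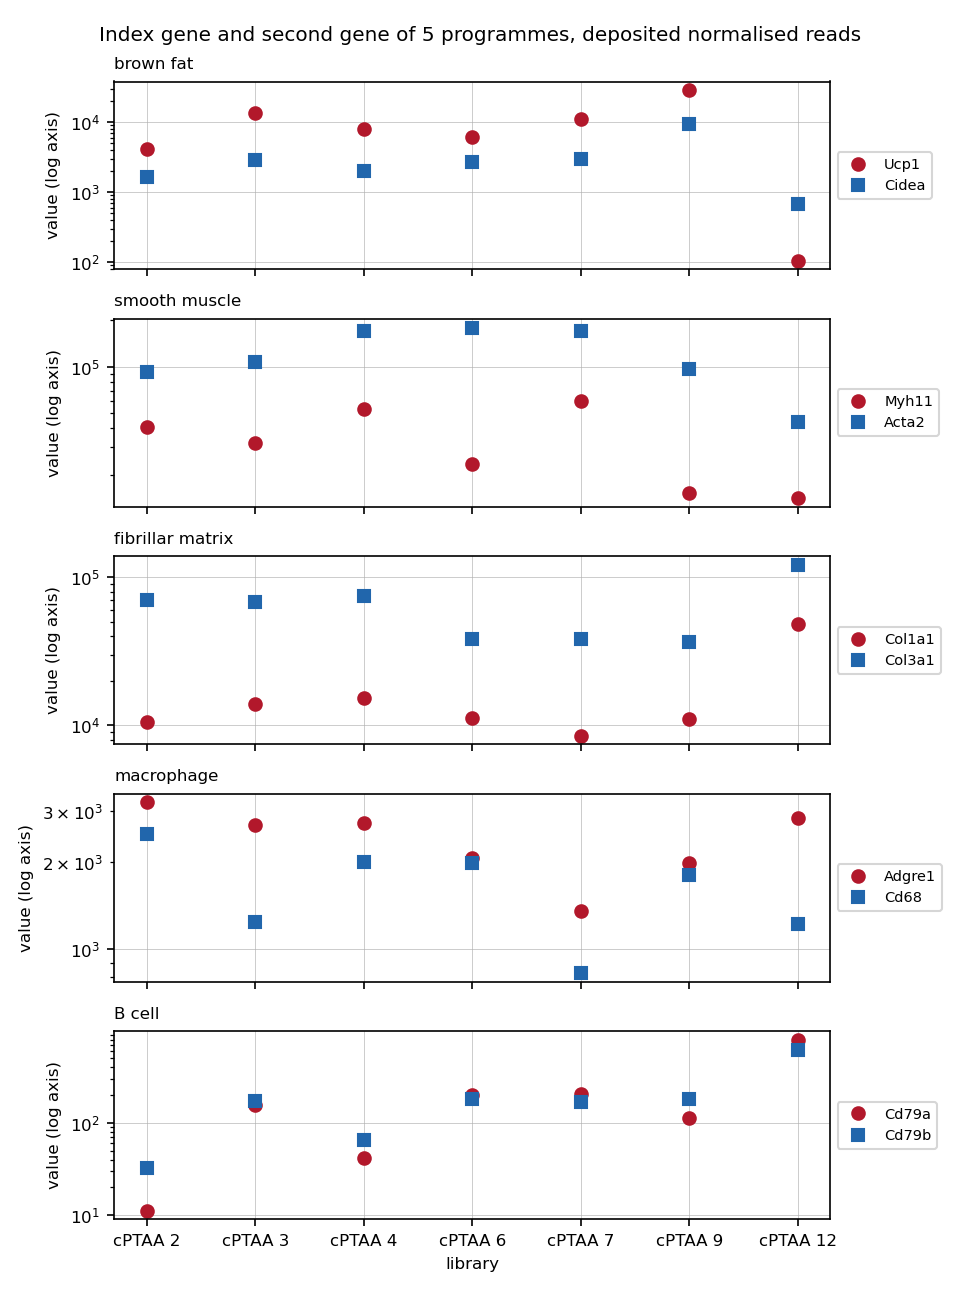
Deposited values of the index gene (circle) and second gene (square) of brown fat, smooth muscle, fibrillar matrix, macrophages and B cells in each of the 7 cPTAA libraries, on log axes. In cPTAA 12 Ucp1 is at 105 and Col1a1 at 48402, and Cd79a runs from 11.2 in cPTAA 2 to 794 in cPTAA 12.

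None of the 10 pairs of these 5 index genes passed Benjamini-Hochberg adjustment over the 10. The strongest was Ucp1 against Col1a1, with r = -0.886 and ρ = -0.321 (exact two-sided permutation p = 0.0712 and 0.498, adjusted 0.427 and 0.713). It rested on cPTAA 12: r was 0.0154 without that library and 0.166 without cPTAA 12 and cPTAA 9. Brown fat and collagen index genes were thus at opposite ends in 1 library, with no common order in the remaining 6.

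Among the other pairs, Col1a1 with Cd79a had r = 0.553 and ρ = 0.214 (exact permutation p = 0.229 and 0.662, adjusted 0.427 and 0.713). Myh11 with Col1a1 had r = -0.550 and ρ = -0.5 (exact permutation p = 0.196 and 0.267, adjusted 0.427 and 0.713). Myh11 with Cd79a had r = -0.528 and ρ = -0.321 (exact permutation p = 0.233 and 0.498, adjusted 0.427 and 0.713). Without cPTAA 12 these 3 values of r were -0.180, -0.0405 and -0.260. Without the 2 libraries farthest from the median of the first gene they were 0.0263, -0.189 and -0.254, so these relations too rested on the libraries left out.

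Adgre1 had r = 0.492 with Col1a1 (ρ = 0.464), -0.419 with Ucp1 (ρ = -0.714), -0.361 with Cd79a (ρ = -0.357) and -0.179 with Myh11 (ρ = -0.179). The exact permutation p-values of these r were 0.215, 0.297, 0.420 and 0.722, adjusted 0.427, 0.427, 0.486 and 0.722, and those of ρ were 0.302, 0.0881, 0.444 and 0.713, each adjusted 0.713. Without the 2 farthest libraries r was 0.661, -0.453, -0.454 and -0.255. The last pairs, Ucp1 with Cd79a and Ucp1 with Myh11, had r = -0.456 and 0.397 and ρ = -0.179 for the first and 0.179 for the second (exact permutation p of r = 0.299 and 0.438, of ρ = 0.713 for both, adjusted 0.427, 0.486 and 0.713). Without the 2 farthest libraries their r was 0.714 and 0.209.

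Each index gene was then set against all 19623 other tested genes by a limma fit of the slope on its log2(value + 1), with Benjamini-Hochberg adjustment over all of them. With Ucp1, 12 genes rose (0.0612% of those tested) and 2 fell (0.0102%). With Myh11, Col1a1, Adgre1 and Cd79a no gene passed limma's adjusted test in either direction (0% each). At an unadjusted p under 0.05 the limma counts were 2890 for Ucp1, 1450 for Myh11, 2219 for Col1a1, 1104 for Adgre1 and 776 for Cd79a, and without cPTAA 12 they were 1619, 4947, 288, 827 and 730. By edgeR's quasi-likelihood test on the recovered reads, 3 genes rose and 3 fell with Ucp1, 1 rose with Col1a1, 2 rose with Cd79a and none passed for Myh11 or Adgre1. The counts moved with the gene that stood for a programme: with Cidea in place of Ucp1, 665 genes rose and 248 fell, and with Col3a1 in place of Col1a1, 92 rose and 77 fell. Without cPTAA 7, 1071 genes rose with Adgre1 and 717 fell against it. Correlated genes are therefore described for those 4 by r alone. As a yardstick chosen after the data were seen, genes with r of 0.8 or more, or of -0.8 or less, were counted.

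The 12 genes that rose with Ucp1 included 2 of the brown adipocyte list, Otop1 and Elovl3, and single genes of lipid and glycogen metabolism. Otop1, a proton channel of brown fat, had its lowest value, 39.7, in cPTAA 12, a median of 420 and its highest, 669, in cPTAA 9. Its slope was 0.51 ± 0.04 log2 units per log2 unit of Ucp1 (SE; r = 0.988, ρ = 0.929, limma adjusted p = 0.00396). Gys2, a glycogen synthase, had values of 17.5, 328 and 660 at the same 3 points, with a slope of 0.64 ± 0.05 (r = 0.985, ρ = 0.929, adjusted p = 0.00396). For both genes cPTAA 12 was the lowest library and cPTAA 9 the highest, as for Ucp1.

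Clstn3, a calsyntenin, and Gpd1, which makes glycerol 3-phosphate for triglycerides, put the 7 libraries in exactly the order of Ucp1 (ρ = 1). Clstn3 ran from 117 to 1411 with a slope of 0.47 ± 0.04 (r = 0.979, limma adjusted p = 0.00775), and Gpd1 from 2716 to 33870 with a slope of 0.42 ± 0.06 (r = 0.971, adjusted p = 0.0438). P2rx5, a purine receptor of brown fat cells, had a slope of 0.31 ± 0.04 (r = 0.977, ρ = 0.964), Slc25a35, a mitochondrial carrier, one of 0.28 ± 0.04 (r = 0.982, ρ = 0.893) and Elovl3, an elongase of very long fatty acids, one of 0.53 ± 0.07 (r = 0.951, ρ = 0.821), all 3 with limma adjusted p = 0.0438. The remaining 5 genes that rose were Agpat2, of triglyceride synthesis, Cpn2, Tuba8, 2010003K11Rik and 9130214F15Rik.

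Sik1, a salt-inducible kinase, and Ddit4, a stress-induced brake on mTORC1, fell against Ucp1. Sik1 had a value of 1732 in cPTAA 12 and 127 to 250 in the other 6, with a slope of -0.47 ± 0.06 (r = -0.946, ρ = -0.679, limma adjusted p = 0.0438). Ddit4 had a value of 3024 in cPTAA 12 and 300 to 703 in the others, with a slope of -0.39 ± 0.05 (r = -0.942, ρ = -0.750, adjusted p = 0.0497). Without cPTAA 12 none of the 14 calls was left by limma, and their adjusted p-values were 0.583 to 0.732. Over those 6 libraries r was still 0.978 for Gpd1, 0.916 for Clstn3 and 0.892 for Otop1, and it was -0.466 for Sik1 and -0.529 for Ddit4.

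The brown adipocyte list held 15 tested genes besides Ucp1. Cidea, Elovl3, Cox7a1, Cox8b, Otop1 and Gk had r of 0.8 or more with Ucp1, which is 6 of 15, where 4.17% of all tested genes did. Cox8b, a cytochrome oxidase subunit of brown fat and heart, ran from 150 in cPTAA 12 to 2923 in cPTAA 9. Median r among all pairs of the list was 0.385, and it was 0.529 without cPTAA 9 and 0.235 without cPTAA 9 and 12. Dio2, which activates thyroid hormone in brown fat, had a median r of -0.03 to its fellow members and was highest, at 3234, in cPTAA 4. Of the developmental regulators on the list, Prdm16 had a median r of 0.15 to the rest, Ebf2 one of -0.20 and Lhx8 one of -0.61.

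Genes of the nuclear-encoded respiratory chain varied together more tightly than any other of the 32 lists. All 21 members were highest in cPTAA 9 and lowest in cPTAA 12, and the median r over their pairs was 0.980, beside 0 over all pairs of tested genes. The list's mean log2(value + 1) was 10.5 in cPTAA 12, 11.4 in cPTAA 3 and 13.1 in cPTAA 9. Atp5b, the β subunit of ATP synthase, had values of 9351 in cPTAA 12, a median of 17038 and 44462 in cPTAA 9. Mitochondrial reads, cardiomyocyte genes and Ucp1 were all highest in cPTAA 9 as well, and their parts could not be told apart in that library. Without cPTAA 9 and 12 the median r was 0.917, and without the 3 libraries with high heart genes, cPTAA 6, 7 and 9, it was 0.952. The few libraries left for that last value include cPTAA 12, where all 21 members were lowest.

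Fatty acid oxidation went the same way, with a median r of 0.951 among its 14 genes and of 0.955 to the respiratory chain. Acadm, which oxidises medium-chain fatty acids, had values of 2294 in cPTAA 12, a median of 4917 and 12443 in cPTAA 9. Hadhb, of the trifunctional protein for long chains, ran from 1974 to 14778 between the same libraries. Cpt1a, the carnitine transferase of liver and many other tissues, was the exception, with a median r of -0.72 to the other members. Cpt1b, the form of muscle and brown fat, had a median r of 0.36. Respiratory chain genes had a median r of 0.768 with the cardiomyocyte markers and of 0.614 with the brown adipocyte list, and without cPTAA 9 and 12 these were 0.836 and 0.004.

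Fatty acid synthesis was highest in cPTAA 3 and oxidation in cPTAA 9, and both lists were lowest in cPTAA 12. The 12 synthesis genes had a median r of 0.682 among themselves, which was 0.4775 without cPTAA 12. They were highest in cPTAA 3 for 8 members and lowest in cPTAA 12 for 10. Fasn, fatty acid synthase, had values of 9801 in cPTAA 12, a median of 38680 and 62059 in cPTAA 3. Acly, which supplies the acetyl-CoA, ran from 3249 to 24710 between those libraries, and Scd1 from 42678 to 141126. In cPTAA 9, where oxidation genes peaked, Acly was at 8261 and Scd1 at 57787. Fasn, Acacb, Elovl6, Thrsp and Mlxipl, 5 of 12, had r of 0.8 or more with Ucp1, where 4.17% of all tested genes did. So did Acadm, Acadvl and Hadha, 3 of 14 oxidation genes. The median r with Ucp1 was 0.703 for the synthesis list and 0.742 for the oxidation list. All of these values include cPTAA 12, where Ucp1 was lowest too.

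General and white fat genes were less alike, with a median r of 0.396 over 19 members, which was 0.161 without cPTAA 9, where 11 of the 19 were highest. Of the 19, Gpd1 alone rose with Ucp1. Retn, Lpl, Dgat2, Gpd1 and Slc2a4, 5 of 19, had r of 0.8 or more with it, where 4.17% of all tested genes did. Fabp4, the fatty acid-binding protein of fat cells, ran from 19775 in cPTAA 12 to 55694 in cPTAA 9, and Cfd only from 17546 to 33383. Adipoq, adiponectin, ran from 3017 in cPTAA 7 to 5951 in cPTAA 9. In cPTAA 12, where Ucp1 was at 105, Adipoq was at its median of 4018 and Cfd at 29538, while the list as a whole had its lowest mean log2(value + 1), 11.6, against 12.5 in cPTAA 9. Lep, leptin, was lowest in cPTAA 2 at 71.6 and highest in cPTAA 3 at 322, and its median r to the other members was 0.09.

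Contractile smooth muscle genes had a median r of 0.622 over 22 members, and 14 of the 22 were lowest in cPTAA 12. The median r was 0.448 without cPTAA 12 and 0.599 without cPTAA 9 and 12. Acta2 had values of 43918 in cPTAA 12, a median of 107551 and 179150 in cPTAA 6. Flna, filamin A, which ties actin filaments to the membrane, ran from 28562 in cPTAA 12 to 73972 in cPTAA 7, and Myl9 from 8362 in cPTAA 12 to 36636 in cPTAA 6. Mylk, Lmod1, Synpo2, Kcnmb1, Itga8, Actn1 and Flna, 7 of 21, had r of 0.8 or more with Myh11, where 2.92% of all tested genes did.

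The members did not share one order. Flna put the libraries in the same order as Myh11 (r = 0.992, ρ = 1, limma adjusted p = 0.586), and Mylk, myosin light chain kinase, had r = 0.987 and ρ = 0.929 (adjusted p = 0.229). Pln, phospholamban, which regulates the calcium pump of heart and smooth muscle, was at 6485 in cPTAA 9, 904 in cPTAA 7, 878 in cPTAA 6 and 8.63 to 33.3 in the other 4. Des, desmin, the intermediate filament of muscle, was at 8053 in cPTAA 9 and at 450 to 703 in cPTAA 2, 3, 4 and 12. Vcl, vinculin, had its lowest value, 600, in cPTAA 9 and a median r of 0.13 to the other members. Without cPTAA 6, 7 and 9 the median r of the list was 0.948 over the 4 libraries left. Those 4 include cPTAA 12, where 14 of the 22 members were lowest, and no value over all gene pairs was taken for them.

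Outside the list, Gucy1a1 and Plcb4 were among the 6 genes with the highest r to Myh11, a choice made after their values were seen. Gucy1a1, a subunit of the nitric oxide receptor guanylate cyclase, had values of 752 in cPTAA 12, a median of 1660 and 3177 in cPTAA 7 (r = 0.994, ρ = 1, limma adjusted p = 0.2). Plcb4, a phospholipase of contractile signalling, had r = 0.990 and ρ = 0.964 (adjusted p = 0.229). At the other end, MHC class II antigen presentation genes ran against Myh11: H2-Aa, H2-Ab1, H2-Eb1, Cd74, H2-DMa, H2-DMb1 and Ccr7, 7 of 14 members, had r of -0.8 or less, where 2.25% of all tested genes did. H2-DMa, which loads peptides onto class II, had values of 388 in cPTAA 7, a median of 578 and 1106 in cPTAA 12, the reverse order of Myh11 (r = -0.990, ρ = -1, limma adjusted p = 0.245). Without cPTAA 12 that r was -0.985, a value for H2-DMa alone. Myh11 was lowest in cPTAA 12 and next lowest in cPTAA 9, where the class II and dendritic cell list was highest and second highest. The list's own median r of 0.565 was 0.292 without cPTAA 12 and 0.0145 without cPTAA 9 and 12.

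Fibrillar collagen genes were all highest in cPTAA 12, in 11 of 11 members. Col3a1 had values of 36791 in cPTAA 9, a median of 67950 and 121194 in cPTAA 12, and Col1a2 24096, 36720 and 95063 in the same 3 places. Col5a2, of the type V collagen inside such fibrils, ran from 5174 in cPTAA 9 to 29792 in cPTAA 12. The median r of the list was 0.658, and it was 0.246 without cPTAA 12 and 0.056 without cPTAA 9 and 12. Col1a2, Col3a1, Col5a1 and Col5a3, 4 of 10, had r of 0.8 or more with Col1a1, where 3.54% of all tested genes did, and Col1a1, Col1a2, Col5a1, Col11a1 and Col24a1 had r of -0.8 or less with Ucp1, where 3.15% did. Without cPTAA 12 r with Ucp1 was 0.0154 for Col1a1, -0.0399 for Col5a1, -0.615 for Col1a2, -0.654 for Col11a1 and -0.756 for Col24a1. With Col1a1 it was then 0.512 for Col1a2, 0.682 for Col3a1, 0.600 for Col5a3 and 0.874 for Col5a1. Col2a1, the collagen of cartilage, had values of 128 in cPTAA 9, a median of 1349 and 5971 in cPTAA 12, beside 7 of 7 tested cartilage markers that were highest in cPTAA 12.

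Genes that process and crosslink collagen were marked by cPTAA 9 as well, where 20 of 22 members were lowest. Lox, the lysyl oxidase that BAPN blocks, had values of 2706 in cPTAA 9, a median of 11065 and 21373 in cPTAA 12. Serpinh1, the collagen chaperone, ran from 10216 in cPTAA 9 to 23353 in cPTAA 4, and Loxl1 only from 4653 to 7093. The median r of the list was 0.624, 0.347 without cPTAA 9 and 0.223 without cPTAA 9 and 12. Against the respiratory chain its median r was -0.772, and -0.514 without both libraries.

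Matricellular proteins and proteoglycans had a median r of 0.567 over 18 members, with 13 of them lowest in cPTAA 9, and of 0.267 without that library and -0.033 without cPTAA 9 and 12. Fn1, fibronectin, had values of 19946 in cPTAA 9, a median of 72967 and 87244 in cPTAA 2. Spp1, osteopontin, ran from 4622 in cPTAA 9 to 29383 in cPTAA 12. Dcn, decorin, Ogn, osteoglycin, and Lum, lumican, did not follow, with median r of -0.56, -0.39 and 0.02 to the rest. Decorin varied little, from 21706 in cPTAA 2 to 29227 in cPTAA 9. Against the respiratory chain the list's median r of -0.765 became -0.073 without cPTAA 9 and 12, so that relation rested on those 2 libraries.

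Elastic fibre and microfibril genes had no common order, with a median r of 0.112 over 16 members. Eln had values of 25570 in cPTAA 9, a median of 87669 and 111225 in cPTAA 12, and Fbn1, fibrillin-1, ran from 4080 to 18961 between those libraries. Fbln1, fibulin-1, and Mfap2, a microfibril protein, had median r of -0.40 and -0.34 to the other members. Protease inhibitors (median r -0.030 over 12), fibroblast genes (0.016 over 12) and genes of modulated and cartilage-like smooth muscle (0.168 over 13) were also near the value for all gene pairs. Timp1, an inhibitor of metalloproteinases, was highest in cPTAA 4 at 6816 and lowest in cPTAA 7 at 1806, while Timp3 was lowest in cPTAA 9 at 2303 and highest in cPTAA 2 at 14251. Basement membrane genes had a median r of 0.531 over 18 members, with 12 lowest in cPTAA 9, and matrix proteases one of 0.372 over 17, which was 0.222 without cPTAA 4. Among the proteases, Ctsd, cathepsin D, had a median r of -0.46 to the rest, and Mmp2, gelatinase A, ran from 1864 in cPTAA 9 to 9965 in cPTAA 12.

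Macrophage genes were set apart by 1 library: 16 of 17 members were lowest in cPTAA 7. C1qa, a chain of complement C1q made by macrophages, had values of 4004 in cPTAA 7, a median of 7203 and 10248 in cPTAA 6. Lyz2 ran from 17027 in cPTAA 7 to 31085 in cPTAA 4. The median r of the list was 0.745, and 0.328 without cPTAA 7. Mertk, a receptor for clearing dead cells, went the other way, at 462 in cPTAA 9 and 1163 in cPTAA 7, with a median r of -0.46 to the rest. With Adgre1, Csf1r and Itgam, 2 of 16, had r of 0.8 or more, where 2.13% of all tested genes did, and 0.683% had r of -0.8 or less.

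The macrophage subtypes were looser. Resident vascular macrophage genes had a median r of 0.283 over 10 members, and of 0.0909 without cPTAA 7. Among them Lyve1, Mrc1, Cd163, Folr2, Stab1 and F13a1 had a median r of 0.455 to 0.602 to the rest and Timd4 and Cbr2 had -0.54 and -0.42. Cd163, a haemoglobin scavenger receptor, had values of 184 in cPTAA 6, a median of 568 and 1588 in cPTAA 12. Trem2 and lipid-associated macrophage genes had a median r of 0.375 over 13. Gpnmb, a glycoprotein of lipid-laden macrophages, was at 6707 in cPTAA 4 and at 640 to 2493 elsewhere, and Mmp12, macrophage elastase, was at 1688 in cPTAA 4 and 316 to 768 elsewhere.

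Interferon-response genes formed a tight block, with a median r of 0.891 over 18 members and 0.934 without cPTAA 9 and 12. Irf7, a transcription factor that amplifies the response, had values of 725 in cPTAA 7, a median of 2152 and 6680 in cPTAA 9. Bst2, tetherin, ran from 1736 in cPTAA 12 to 6026 in cPTAA 9, Ifit3 from 633 in cPTAA 12 to 3920 in cPTAA 6 and Isg15, a ubiquitin-like modifier, from 250 in cPTAA 12 to 1476 in cPTAA 6. The libraries cPTAA 2, 6, 9 and 4 lay above cPTAA 3, 7 and 12 in the list's mean log2(value + 1), which was 10.5, 10.1, 9.96 and 9.79 against 8.91, 8.498 and 8.472. This order differed from those of Ucp1, Myh11 and Col1a1.

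The 250 bases before the start sites of these interferon-response genes were searched for the interferon-stimulated response element core, GAAANNGAAA. Both strands were searched (as TTTCNNTTTC on the other), with overlapping matches allowed. The members were listed as interferon-response genes, so the share with a match does not bear on how they varied here. The promoters are those of RefSeq on GRCm38.p6. Of 18 members 12 had an entry, and 7 of these, or 58.3%, held a match: Isg15, Ifit1, Ifit3, Oas1a, Oas3, Rsad2 and Bst2. Over all 13125 tested genes with an entry, 434, or 3.31%, held one. Members without an entry included Mx1, Mx2, Oas2, Usp18 and Zbp1. The 60-base windows below show 4 of the 7 promoters, 5′ to 3′ along the gene, with the matches in capitals.
Isg15: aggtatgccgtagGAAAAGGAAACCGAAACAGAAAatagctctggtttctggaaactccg
Ifit1: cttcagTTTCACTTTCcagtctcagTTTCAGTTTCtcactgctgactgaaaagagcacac
Ifit3: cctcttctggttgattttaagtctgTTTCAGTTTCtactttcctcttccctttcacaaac
Bst2: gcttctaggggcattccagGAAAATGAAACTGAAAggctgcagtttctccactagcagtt

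These windows lie upstream of the start at chr4:156200850-156200909 (minus strand) for Isg15, chr19:34640779-34640838 (plus) for Ifit1, chr19:34583382-34583441 (plus) for Ifit3 and chr8:71537562-71537621 (minus) for Bst2. In Isg15 and Bst2 the matches overlap, 3 and 2 of them, and Ifit1 has 2 that do not. Ifit3 has a further match outside the window shown. A match is a run of letters and not a measured binding site. The same search found the core in 2 of 12 macrophage genes with an entry, Aif1 and Ctss (16.7%), in 1 of 13 respiratory chain genes (7.69%) and in 1 of 18 contractile genes, Mylk (5.56%). CArG boxes, the elements bound by serum response factor, were in 2 of the 18 contractile genes, Myl9 and Vcl, or 11.1%, and in 1.46% of all tested genes with an entry. Tagln, Myh11, Actg2 and Myocd had no entry, so their promoters were not searched. In the windows of these 2 the CArG box is in capitals.
Myl9: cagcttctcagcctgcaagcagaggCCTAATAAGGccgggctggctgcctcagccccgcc
Vcl: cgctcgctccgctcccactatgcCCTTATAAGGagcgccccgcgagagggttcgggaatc

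The first lies at chr2:156775278-156775337 and the second at chr14:20929148-20929207, both on the plus strand. Their genes did not share one order: Myl9 was lowest in cPTAA 12 at 8362, and Vcl was lowest in cPTAA 9 at 600 and highest in cPTAA 4 at 4470.

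Acute phase genes varied with the interferon block, with a median r of 0.679 between the lists and 0.725 among the 10 members. Saa3, a serum amyloid A of fat and macrophages, ran from 80.1 in cPTAA 7 and 116 in cPTAA 12 through a median of 644 to 6155 in cPTAA 2. Lcn2, lipocalin-2, which withholds iron from bacteria, ran from 262 in cPTAA 7 to 2815 in cPTAA 2, and Hp from 12249 to 52954 between the same libraries. Cp, ceruloplasmin, was looser, with a median r of 0.25 to the rest. Monocyte and inflammatory mediators had a median r of 0.559 over 18 members and of 0.630 with the interferon list. Ly6c2, of inflammatory monocytes, was at 2263 in cPTAA 9, 941 in cPTAA 2 and 105 in cPTAA 7. Complement genes had a median r of 0.516 over 13, with 8 lowest in cPTAA 7, and C3 ran from 10029 in cPTAA 6 to 33836 in cPTAA 4.

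B cell genes were the tightest of the lymphocyte lists, with a median r of 0.903 over 11 members, of which 11 were highest in cPTAA 12 and 9 lowest in cPTAA 2. Ms4a1, CD20, a membrane protein of B cells, had values of 12.1 in cPTAA 2, a median of 65.1 and 500 in cPTAA 12. Of the 10 other members 8 had r of 0.8 or more with Cd79a, where 1.71% of all tested genes did, and Cd79b, Ms4a1, Pax5, Fcrla, Bank1, Fcmr and Cxcr5 were among the 8. Without cPTAA 12 the list's median r was 0.804. Of the 5 tested markers of lymph node stroma and follicles, Cr2, Fcer2a and Cxcl13 were highest in the same library. Cr2, complement receptor 2, was at 186 and Fcer2a, CD23, at 223 in cPTAA 12, against at most 44.0 and 36.9 elsewhere. The other 2, Clu and Ccl19, were lowest there, at 9486 and 40.6, and Glycam1 and Madcam1 did not pass the filter. The median r of the 5 tested markers was -0.548, and -0.018 without cPTAA 12.

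Immunoglobulin genes followed the B cells in part. Ighm, the μ heavy chain, had values of 1699 in cPTAA 2, a median of 3772 and 44151 in cPTAA 12, and Jchain, which joins secreted IgM and IgA, ran from 151 to 4477 between those libraries. Igkc, the κ light chain, was lowest in cPTAA 2 at 934 and high in both cPTAA 12 (20577) and cPTAA 9 (16600). Ighg2c, an IgG chain, had its own order, with 9587 in cPTAA 9, 2243 in cPTAA 12 and 88.0 in cPTAA 2. The list of 16 had a median r of 0.581 and of 0.695 with the B cell list, which were 0.315 and 0.438 without cPTAA 12.

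Interferon-response and acute phase genes stood opposite the B cell genes. The median r between lists was -0.750 for interferon response with B cell and -0.673 for acute phase with B cell, and -0.718 and -0.726 without cPTAA 9 and 12. These last values keep cPTAA 2 and 7, and none was taken without them. In cPTAA 2 the interferon and acute phase lists were at their highest and the B cell list at its lowest, and in cPTAA 12 and 7 the first 2 lists were at their 2 lowest levels and the B cell list at its 2 highest. Ifit2, Oas3, Oasl2, Rsad2 and Ifi44, 5 of 18 interferon genes, and Saa3 and Saa1, 2 of 10 acute phase genes, had r of -0.8 or less with Cd79a, where 0.836% of all tested genes did. Since limma's smallest adjusted p against Cd79a was 0.107, none of these single genes passed a test.

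T cell genes had a median r of 0.694 over 14 members, and 7 of them were highest in cPTAA 3, the library with high thymocyte genes. Cd8a was at 428 in cPTAA 3 and at 28.3 to 107 elsewhere, and Lck, the T cell kinase, at 452 against 91.7 to 243. Il7r, a receptor also found on other lymphoid cells, did not follow, with a median r of -0.14 and its highest value, 443, in cPTAA 4. Outside cPTAA 3 the T cell list was highest in cPTAA 12. Cytotoxic and natural killer genes had another order, with a median r of 0.677 over 10 members, 0.428 without cPTAA 9, and the highest level in cPTAA 9. Gzmb, granzyme B, was at 230 in cPTAA 2 and 105 in cPTAA 9, and at 8.31 to 26.6 in the other 5.

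Mast cell genes had a median r of 0.812 over 8 members, which was 0.830 without cPTAA 9 and 12. Cma1, a mast cell chymase, had values of 37.7 in cPTAA 7, a median of 151 and 213 in cPTAA 9, and Mcpt4 ran from 59.9 in cPTAA 7 to 262 in cPTAA 12. They were opposite to the contractile genes, with a median r of -0.611 between the lists and -0.655 without cPTAA 9 and 12. Neutrophil genes had a median r of 0.647 over the 8 of 12 members that passed the low-value filter. S100a9, of the calprotectin pair, was at 330 in cPTAA 12, 172 in cPTAA 9 and 7.73 in cPTAA 7. Camp, Ly6g, Ngp and Mpo did not pass the filter. Class II and dendritic cell genes were highest in cPTAA 12 for 12 of 14 members, with a median r of 0.565 and of 0.606 with the mast cell list. Without cPTAA 12 the list's own value was 0.292, and without cPTAA 9 and 12 the values were 0.0145 and 0.279. Cd74, the invariant chain, ran from 5349 in cPTAA 7 to 19349 in cPTAA 12, with 15723 in cPTAA 9.

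Proliferation genes followed Col1a1 through cPTAA 12. Mki67, Top2a, Ccna2, Ccnb1, Ccnb2, Cdk1, Bub1, Rrm2, Plk1 and Cenpf, 10 of 16, had r of 0.8 or more with Col1a1, where 3.54% of all tested genes did. Of the 16, 13 were highest in cPTAA 12. Top2a, which untangles chromosomes, had values of 170 in cPTAA 6, a median of 281 and 908 in cPTAA 12, and Mki67 109, 322 and 1108 in the same places. Pcna, the replication clamp, did not follow, from 605 to 967, with a median r of -0.15 to the rest. The median r of the list was 0.700, and 0.477 without cPTAA 12. Immediate early genes, transcription factors and phosphatases that respond fast to a stimulus, were highest in cPTAA 12 for 9 of 12 members, with Dusp1 at 5976 there and at 849 to 3232 elsewhere. Endoplasmic reticulum stress genes varied least, over 0.55 log2 units between the lowest and highest library, with a median r of 0.331, which was 0.180 without cPTAA 4.

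Against Col1a1, contractile genes lay at the other end: Cnn1, Smtn, Actg2, Myl9, Tpm2, Kcnmb1 and Ppp1r14a, 7 of 22, had r of -0.8 or less, where 2.42% of all tested genes did. Without cPTAA 12 r was -0.733 for Smtn and between -0.331 and -0.0086 for the other 6. Calponin, Cnn1, and its fellows were lowest in cPTAA 12, where Col1a1 was highest. Beyond the lists, Marcks, a membrane-bound actin regulator, had the highest r with Col1a1 among genes with a mean of 50 or more (r = 0.993, ρ = 0.857, limma adjusted p = 0.285), a gene picked after its values were seen. It ran from 1446 in cPTAA 7 to 2972 in cPTAA 12, and r without cPTAA 12 was 0.935.

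**Figure D4:**
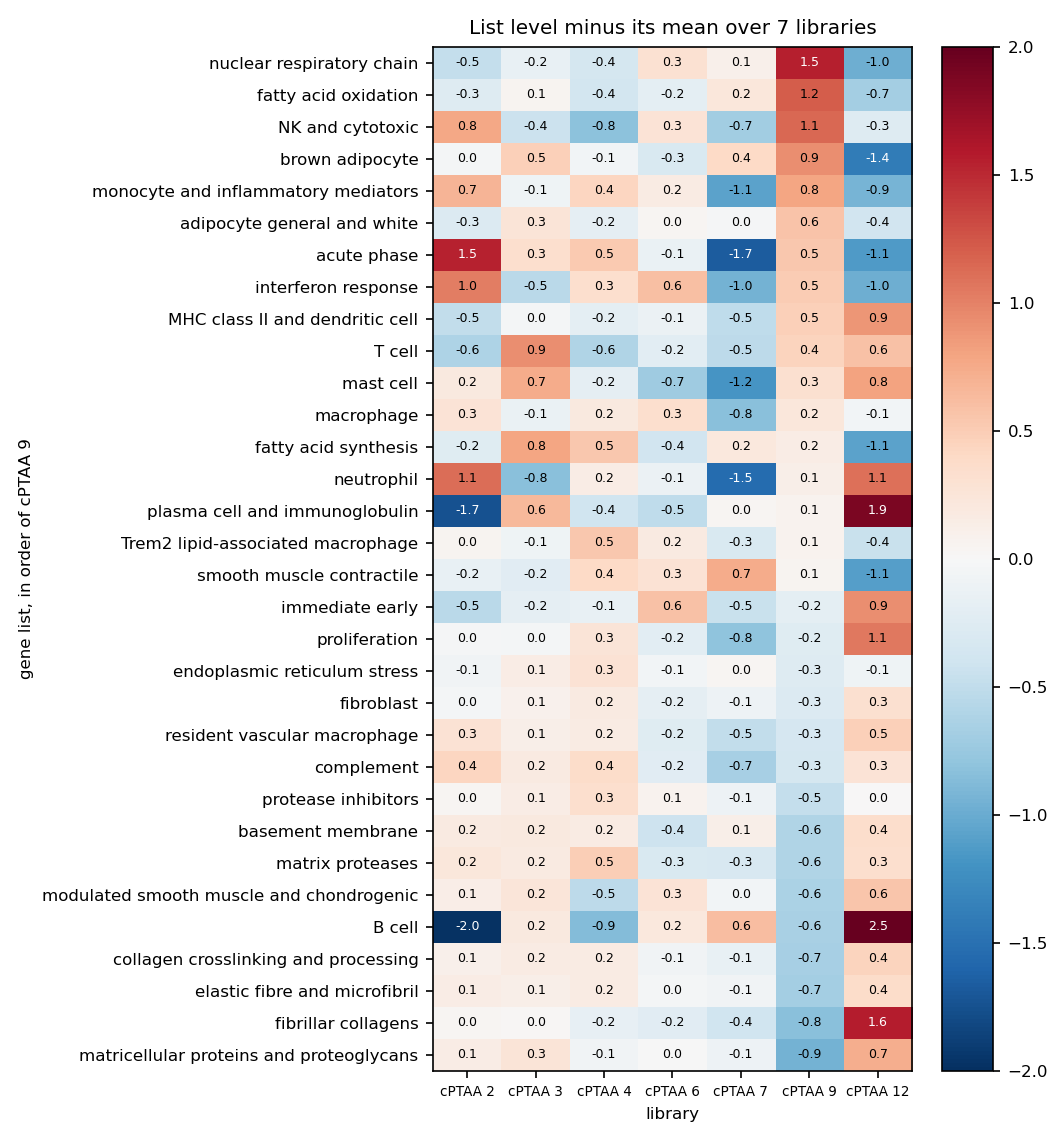
Mean log2(value + 1) of the members of each of 32 gene lists in the 7 cPTAA libraries, minus the list's mean over the libraries, with colours that end at 2 log2 units. Lists at the top are those highest in cPTAA 9 (respiratory chain, fatty acid oxidation) and lists at the bottom those lowest there (matricellular proteins, fibrillar collagens), and the B cell list runs from cPTAA 2 to cPTAA 12 over 4.43 log2 units.

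Between lists, the 7 libraries gave 3 loose groups. Respiratory chain, fatty acid oxidation and cardiomyocyte lists went together, and the respiratory chain ran against the collagen crosslinking list. It ran against the matricellular list only with cPTAA 9 and 12 included. The brown adipocyte list went with the respiratory chain only with cPTAA 9 and 12 included. Fatty acid synthesis was highest in cPTAA 3 and oxidation in cPTAA 9, and both were lowest in cPTAA 12. Macrophage, interferon, acute phase and inflammatory mediator lists went together, with a median r of 0.615 for macrophage with interferon response and 0.562 for macrophage with acute phase. B cell, plasma cell and fibrillar collagen lists went together, with 0.544 for fibrillar collagen with B cell, which was -0.10 without cPTAA 12. The interferon relations kept their sign and size without cPTAA 9 and 12 (0.766 with macrophage and 0.683 with acute phase). Those values keep cPTAA 7, the lowest library of the macrophage and acute phase lists, and none was taken without it. The brown fat and matricellular relations to the respiratory chain and the collagen relation to B cells rested on cPTAA 9 and 12. All lists share the same 7 libraries and their scaling, and 4.80% of all pairs of tested genes had r over 0.8.

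**Figure D5:**
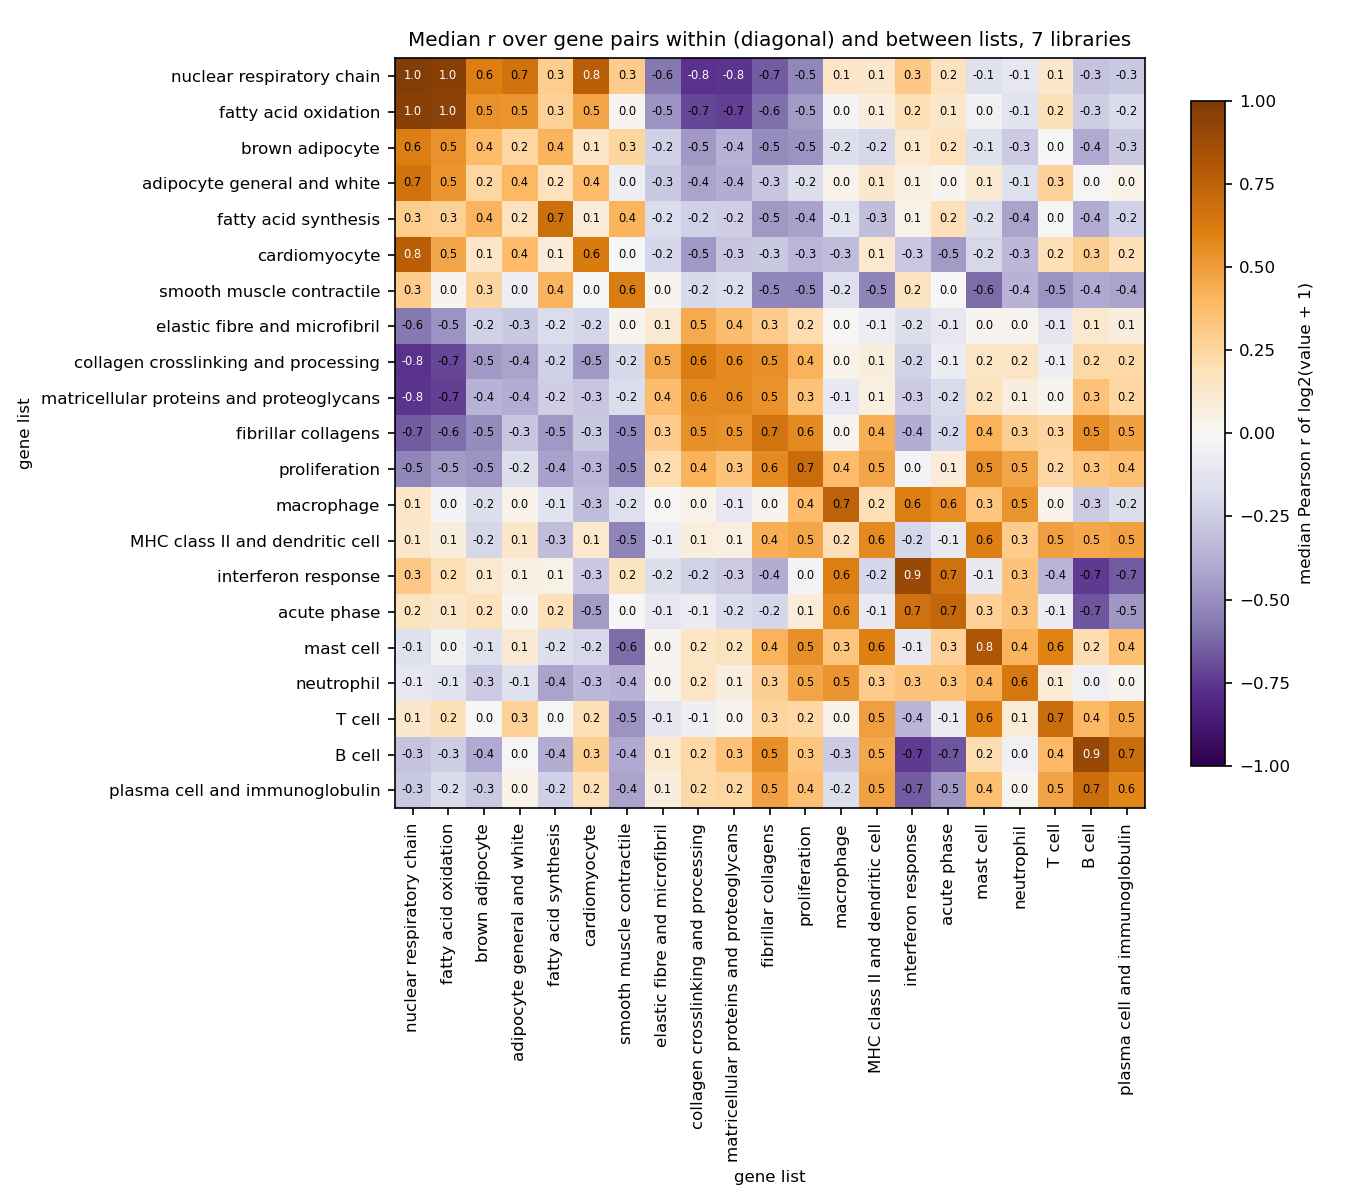
Median Pearson r of log2(value + 1) over the gene pairs within each of 21 lists (diagonal) and between lists (off the diagonal), over 7 cPTAA libraries. The respiratory chain is at 0.980 with itself and -0.772 with collagen crosslinking genes, and interferon response is at 0.891 with itself and -0.750 with B cell genes.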

How the data were processed

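RNA of snap-frozen, ground aortic tissue was extracted with TRIzol, captured with oligo-dT beads and copied with random hexamers, per the labels' protocols. HISAT2 2.0.5, featureCounts 1.5.0-p3, StringTie 1 and the build GRCm39 are named in the submitters' processing notes; strand, scaling and annotation are not given in the sources used here. The deposited values are a signal that the authors made from gene counts. In every library 100% of values were whole multiples of the value of 1 read, within 0.02 reads, so reads were recovered (15238188 to 17493428 per library).

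Of 30130 listed genes, 19624 reached a value of 1 in 4 libraries and were tested on log2(value + 1) with limma 3.58.1, as the slope on an index gene. A gene was called where its Benjamini-Hochberg adjusted p was under 0.05. The quasi-likelihood test of edgeR 4.0.16, run on recovered reads, gave 3 genes rising with Ucp1 and 3 falling, 1 rising with Col1a1 and 2 rising with Cd79a. R 4.3.3, python 3.11.15 and scipy 1.17.1 were used, with exact permutation over all 5040 orders for pairs of genes. Transcript lengths and gene types came from GENCODE M21, matched by symbol for 28642 genes. Scripts were tested on simulated data.

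Genes were named by a rule: the index genes, the 20 most abundant nuclear and 5 most abundant mitochondrial genes, the 15 most variable genes, the genes with the largest r among those called, and the leading members of each list. Other genes named in the text were chosen after their values were seen. The lists and the libraries were chosen with earlier results of these data known. Alternatives covered scaling, pseudocount, filter, second index genes, rank correlation, edgeR and each library left out; leaving out cPTAA 9 and 12 together, or cPTAA 6, 7 and 9, and the threshold of 0.8 on r were chosen after seeing the data. The labels do not say whether the samples came from separate animals.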

Additional observations from a re-analysis of the deposited data

Results flagged for a closer look

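In a group of 7, a value was singled out where its gap to the nearest other library, divided by the whole range, was above Dixon's 95% critical value. Chance alone does this in about 1 in 20 groups that were not picked by their values. Examined on the scale of log2(value + 1) were 214 genes named in the text and 32 list levels, of which 18 genes and 3 lists passed. Many of the genes were named for their values here, among them those that followed Ucp1. Their count therefore cannot be set against that rate.

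The library cPTAA 12 was the low end for Ucp1 (gap of 0.653 of the range), Otop1 (0.694), Gys2 (0.619), P2rx5 (0.613) and 2010003K11Rik (0.599), all of which varied with Ucp1, and for the smooth muscle actin Actg2 (0.604). It was the high end for Sik1 (0.741), Col5a1 (0.731), Marcks (0.695), Col1a1 (0.667) and Ddit4 (0.632), and for the level of the fibrillar collagen list (0.637). In cPTAA 9 the elastic fibre list (0.589) and the matrix genes Sparc (0.676), Eln (0.659) and Fn1 (0.573) were singled out as low. In cPTAA 7 the macrophage list (0.599) and Ctss, the protease cathepsin S (0.654), were low. In cPTAA 4 Madcam1, an adhesion molecule below the low-value filter, was high (0.699). In cPTAA 6 Mgp (0.578) and Igfbp7 (0.589) were high. No cause of these gaps was tested.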

How the results depend on the processing

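No paired analysis was possible because the 7 libraries form 1 group. Genes rising with Ucp1, 12 by limma, were 4 with scaling to library totals, 3 with no filter, 3 by edgeR, 665 with Cidea as index and 0 without cPTAA 9 and 12. Genes falling against it, 2 by limma, were 1, 0, 3, 248 and 0 in the same order, and 1 with a value of 10 or more in all libraries. Genes rising with Col1a1 were 92 and falling 77 with Col3a1 as index, and 1 rose by edgeR. With Cd79a, 1 rose with Cd79b as index and 2 by edgeR, and with Adgre1 1 rose without cPTAA 9 and 12. Without the 2 farthest libraries, which were cPTAA 9 and 12, r became 0.166 for Ucp1 with Col1a1 and 0.714 for Ucp1 with Cd79a, and without cPTAA 9 and 12 it was -0.169 for Col1a1 with Cd79a. The share held by the 50 genes of highest mean level, 21.5%, was 15.4% without division by length. The first component held 41.8% over all tested genes. The median over 32 lists of the median r, 0.574, was 0.629 with library totals, 0.518 with Spearman's ρ and 0.504 without cPTAA 9 and 12. The cause of these changes was not tested.

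With each library left out in turn, genes rising with Ucp1 ranged from 0 to 17 and falling from 0 to 3, those rising with Adgre1 from 0 to 1071 and falling from 0 to 717, and those rising with Cd79a from 0 to 2. The range of r was -0.506 to 0.786 for Ucp1 with Myh11, -0.924 to 0.0154 for Ucp1 with Col1a1, -0.759 to 0.537 for Ucp1 with Cd79a, -0.363 to 0.506 for Myh11 with Adgre1, -0.180 to 0.693 for Col1a1 with Cd79a and -0.744 to 0.00682 for Adgre1 with Cd79a. That share of the 50 genes ranged from 20.8% to 21.9%, the first component from 39.8% to 57.7% and the median over lists from 0.481 to 0.637. Of the 14 slopes on Ucp1, 14 stayed past the threshold with TMM scaling and with a pseudocount of 0.1, 5 with library totals, 3 with no filter, 5 by edgeR and 13 with Cidea. Without a library, 4, 11, 3, 3, 5, 7 and 0 stayed for cPTAA 2, 3, 4, 6, 7, 9 and 12, and none of the 14 changed sign. Scaling to library totals moved the median of all genes by -0.17 log2 units in cPTAA 9 and 0.11 in cPTAA 12. With 7 libraries, the count of genes past the threshold changed with the index gene and with single libraries left out.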
